A study of Homo sapiens with 6 samples.

Results

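The 10 genes described here are 6 Eph receptors (EPHA2, EPHA3, EPHA4, EPHA5, EPHB2, EPHB4) and 4 ephrins (EFNA1, EFNA5, EFNB1, EFNB2), each taken by its symbol from a table of 17766 genes, where each occurred in a single row. They were compared between 2 human melanoma cell lines, WM115, established from a primary skin tumour, and WM266-4, established from a skin metastasis. Both were grown untreated in DMEM with 10% fetal bovine serum, with 3 biological repeats of each line. Each line is a single culture model, so a difference between them is a difference between these lines and not between primary and metastatic tumours in general. Repeat 1 was measured on the 1.0 ST version of the Affymetrix Human Gene array, and repeats 2 and 3, whose RNA was prepared with another kit, on the 2.1 ST version, so kit, array version and repeat changed together while each version held both lines.

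Eph receptors form the largest family of receptor tyrosine kinases. They bind ephrins, which are themselves held on the surface of neighbouring cells, so signalling runs at cell contacts: forward into the cell with the receptor and, in reverse, into the cell with the ephrin. Ephrins of the A class are anchored by a lipid (GPI) tail and bind mainly EphA receptors, those of the B class span the membrane and bind mainly EphB receptors, and EPHA4 binds ligands of both classes. In the neural crest, from which melanocytes come, these contacts guide migrating cells, and in melanoma several members have been studied in invasion and vessel mimicry.

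Levels are log2 signals as the authors deposited them, differences are WM266-4 minus WM115, and a call means that the adjusted p fell under 0.05 in a limma fit over all 12436 genes tested. Genes in the lowest 30% of mean signal (under 3.97 log2) were not tested. "Rose" and "fell" mean called higher or lower in WM266-4. Of all genes tested, 26.9% were called, 13.6% higher and 13.3% lower, and counts below are to be read against those shares. The median difference of all genes tested was 0.01 log2 and the median absolute difference 0.25. The array medians lay between 6.12 and 6.18. The deposited values had been levelled between array versions gene by gene: the mean over the repeat 1 arrays and the mean over the later arrays differed by a median of 0.0031 log2. The level of one line in repeat 1 can therefore not be set against its level in repeats 2 and 3, and only the difference between lines within a repeat is compared between repeats. The SDs of a line and the overlap of arrays given below do cross the array versions. They therefore also carry any change of the line difference between versions, and the SDs are not a pure replicate spread.

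EPHA2, EPHA4, EPHB2 and EFNB2 fell in WM266-4, EPHA3 rose, EPHA5, EPHB4, EFNA5 and EFNB1 were not called, and EFNA1 was too dim to be tested. Thus 5 of the 9 tested genes were called, 1 higher and 4 lower, against 26.9% of all genes. The genes were chosen with earlier results of these data known, so this share is a description and not a test. EPHA4 and EFNB2 passed the filter only through their level in WM115. Receptors made up 4 of the 5. The median absolute difference of the 9 was 1.47 log2. The arrays of the lines did not overlap for 5 of the 9, the same genes that were called, against 51.7% of all genes tested, so separation of the arrays alone was common in these data.

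**Figure D1:**
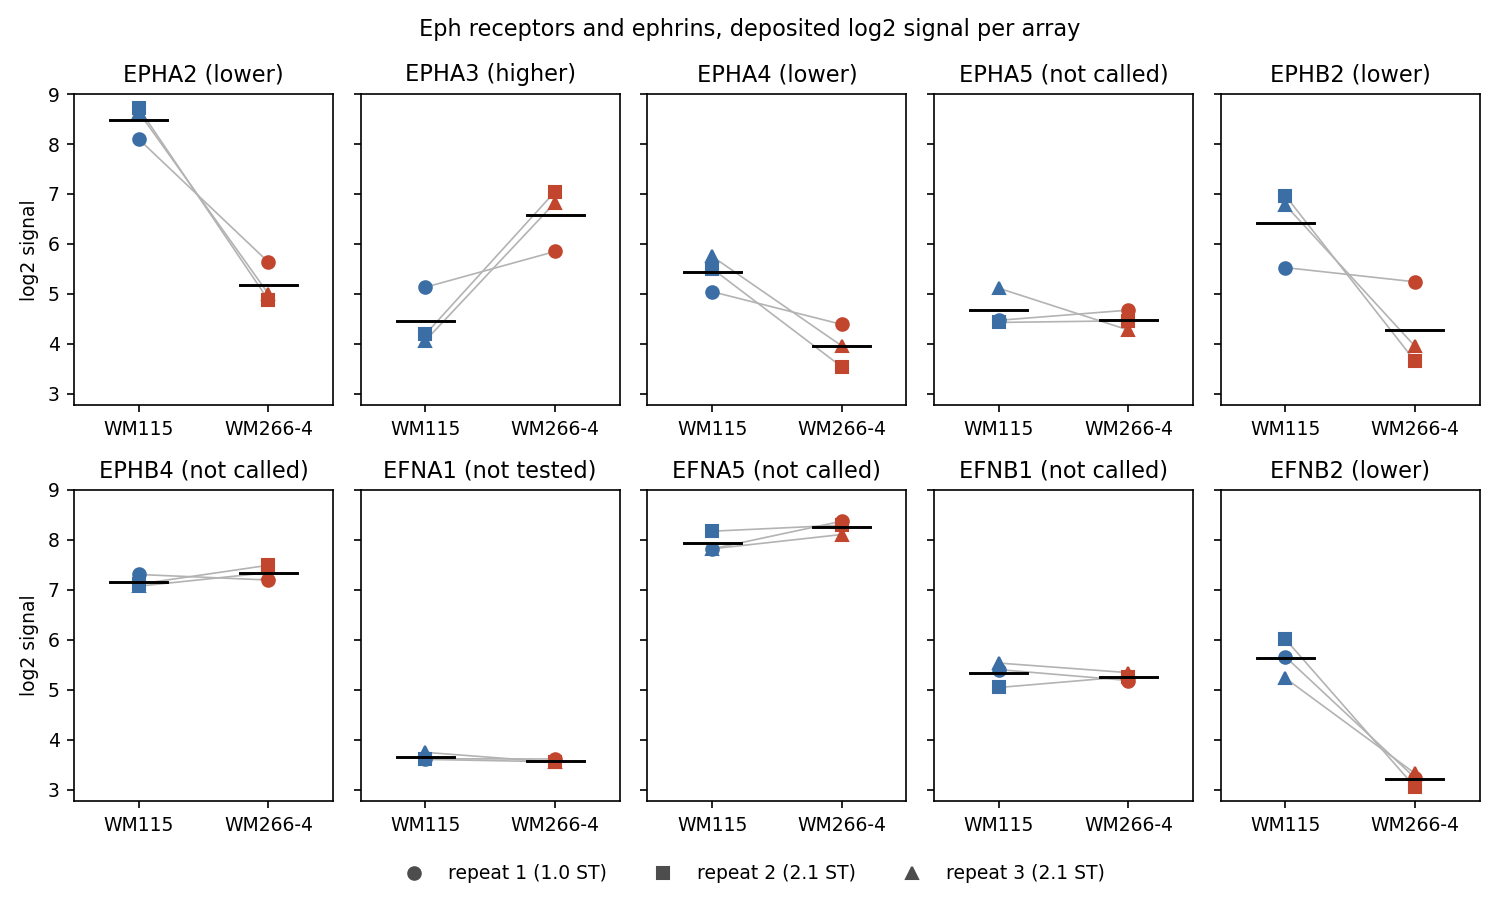
Deposited log2 signal (vertical axis) of each gene in each array of WM115 (blue) and WM266-4 (red). Symbols give the repeat, grey lines join arrays of the same repeat, black bars are means of 3 arrays, and the word after each symbol says whether the gene was called higher or lower in WM266-4; EPHA2 ran from 8.10 to 8.72 in WM115 and from 4.88 to 5.64 in WM266-4.

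The 250 bases before the first RefSeq start of the called genes are shown because these genes differed between the lines at the level of RNA. Sequences are from RefSeq on GRCh38.p14, written in the direction of transcription with the start site following the last base, and capitals mark a GC box (GGGCGG) or a TATA box (TATAAA) on either strand.
EPHA2 (chr1:16156070-16156319, minus strand): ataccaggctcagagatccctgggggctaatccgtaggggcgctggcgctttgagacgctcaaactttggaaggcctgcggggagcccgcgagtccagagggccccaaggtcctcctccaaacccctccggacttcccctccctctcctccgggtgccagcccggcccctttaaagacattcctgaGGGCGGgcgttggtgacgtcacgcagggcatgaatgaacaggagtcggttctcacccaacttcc
EPHA4 (chr2:221574203-221574452, minus strand): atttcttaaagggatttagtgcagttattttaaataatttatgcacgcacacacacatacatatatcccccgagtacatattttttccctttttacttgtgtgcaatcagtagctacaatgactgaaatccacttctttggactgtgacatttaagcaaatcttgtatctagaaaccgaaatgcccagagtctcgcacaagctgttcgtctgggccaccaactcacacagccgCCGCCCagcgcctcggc
EPHB2 (chr1:22710588-22710837, plus strand): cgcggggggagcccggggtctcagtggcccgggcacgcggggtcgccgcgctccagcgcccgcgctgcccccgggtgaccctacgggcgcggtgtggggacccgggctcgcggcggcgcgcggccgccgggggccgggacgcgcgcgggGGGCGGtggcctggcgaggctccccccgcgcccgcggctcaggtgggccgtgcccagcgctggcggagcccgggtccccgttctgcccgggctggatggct
EFNB2 (chr13:106535663-106535912, minus strand): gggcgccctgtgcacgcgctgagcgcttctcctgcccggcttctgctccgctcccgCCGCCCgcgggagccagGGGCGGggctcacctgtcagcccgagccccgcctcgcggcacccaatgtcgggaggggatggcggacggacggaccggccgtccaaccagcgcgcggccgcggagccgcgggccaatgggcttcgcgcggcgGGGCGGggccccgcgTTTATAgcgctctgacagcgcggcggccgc
EPHA3 (chr3:89107371-89107620, plus strand): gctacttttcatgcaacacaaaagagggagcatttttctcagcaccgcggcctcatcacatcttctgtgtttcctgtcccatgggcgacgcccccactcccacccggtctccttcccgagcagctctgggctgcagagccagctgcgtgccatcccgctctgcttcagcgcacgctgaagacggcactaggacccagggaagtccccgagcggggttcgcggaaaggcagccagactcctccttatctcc

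All 10 genes had such a window. A GC box lay in 9 of the 10, EPHA3 being the exception, against 42.3% of 27305 RefSeq windows of the same length. The 4 genes that fell include 3 with 1 GC box and EFNB2 with 3. EFNB2 was the only one of the 10 with the TATA box letters, 25 to 30 bases before the start. They lay on the opposite strand (TTTATA as printed), so they do not read as TATAAA in the direction of transcription. On either strand the motif was found in 11.1% of all windows. The letters of the AP-1 site (TGANTCA, in 6.60% of all windows), the E-box CACGTG (6.49%) and the M-box core CATGTG (9.54%) were in none of the 10 windows on either strand. The GC content was 63.2% for EPHA2, 43.2% for EPHA4, 84.8% for EPHB2, 78.4% for EFNB2 and 61.2% for EPHA3. Of these only EPHA4 lay below the median of 58.0% over all windows. The share with a GC box was not compared with windows of like GC content. RefSeq lists a second start for EPHA4, EPHA5 and EPHB2, and the first listed was used.

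EPHA2, a receptor of A-class ephrins that is active in epithelial cells and many carcinomas, had the largest difference of the 10. Its signals were 8.10, 8.72 and 8.64 in the 3 repeats of WM115 and 5.64, 4.88 and 5.001 in those of WM266-4. Every WM115 array lay above every WM266-4 array, by at least 2.46 log2. WM115 averaged 8.48 ± 0.34 and WM266-4 averaged 5.17 ± 0.41 (SD, n = 3). The fitted difference was -3.31 (SE 0.26, 95% interval -3.93 to -2.69, adjusted p = 0.00084 by limma). The signal in WM115 was 9.93 times that in WM266-4, and 0.563% of the genes tested had a difference at least as large. EPHA2 was called in each of the 14 alternative fits, of which 3 are the same fit, since leaving out either repeat 1 array gives the fit on the 2.1 arrays alone. In a bulk extract, fewer expressing cells and less RNA per cell cannot be told apart, here and for the genes that follow.

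EPHA3, another A-class receptor, known from studies of leukaemia, melanoma and other tumours, went the other way. Its signals were 5.13, 4.19 and 4.07 in WM115 and 5.85, 7.05 and 6.83 in WM266-4. The lines did not overlap, but the nearest arrays, those of repeat 1, were 0.72 log2 apart. The means were 4.46 ± 0.58 and 6.57 ± 0.64 (SD, n = 3). The fitted difference was 2.11 (SE 0.41, interval 1.13 to 3.09, adjusted p = 0.014 by limma), or a 4.32-fold higher signal in WM266-4. EPHA3 no longer passed when any one array of the later repeats was omitted: the adjusted p was 0.061 without WM115 replicate 2, 0.058 for WM115 replicate 3, 0.060 for WM266-4 replicate 2 and 0.059 for WM266-4 replicate 3, where the difference ran from 1.85 to 1.97.

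EPHA4, the receptor that binds ephrins of both classes, had signals of 5.04, 5.51 and 5.75 in WM115 and 4.39, 3.54 and 3.96 in WM266-4. All WM115 arrays were above all WM266-4 arrays. The difference was -1.47 (SE 0.27, interval -2.12 to -0.82, adjusted p = 0.012 by limma). Its mean in WM266-4, 3.96, was just under the filter level, so EPHA4 passed through its level in WM115 and no fold is given. The call was lost without WM115 replicate 2 (adjusted p = 0.054).

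EPHA5, an A-class receptor best known from the nervous system, was not called. Its signals were 4.47, 4.43 and 5.11 in WM115 and 4.67, 4.46 and 4.28 in WM266-4, so the lines overlapped and WM115 repeat 3 stood highest. The difference was -0.20 (interval -0.73 to 0.33, adjusted p = 0.54 by limma), and it was 0.053 without WM115 replicate 3.

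EPHB2, a receptor of B-class ephrins that takes part in the sorting of intestinal crypt cells, had signals of 5.53, 6.97 and 6.78 in WM115 and 5.24, 3.65 and 3.95 in WM266-4. The arrays of the later repeats were far apart between lines, while those of repeat 1 were 0.28 log2 apart. The means were 6.42 ± 0.78 and 4.28 ± 0.84 (SD, n = 3), the widest SDs of the 10 genes in each line. These SDs cross the array versions, so they also hold the smaller difference of repeat 1. The difference was -2.14 (SE 0.53, interval -3.43 to -0.85, adjusted p = 0.030 by limma), a 4.41-fold higher mean signal in WM115. This call depended on single arrays and on the fit: the adjusted p was 0.109 when WM115 replicate 2 was omitted, 0.110 for WM115 replicate 3, 0.112 for WM266-4 replicate 2, 0.106 for WM266-4 replicate 3, and 0.058 with a robust prior.

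EPHB4, the receptor of EFNB2 that marks veins, had signals of 7.30, 7.11 and 7.07 in WM115 and 7.19, 7.49 and 7.34 in WM266-4. The lines overlapped. The difference was 0.18 (interval -0.13 to 0.49, adjusted p = 0.35 by limma).

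EFNB2, a membrane-spanning ligand of EPHB4, EPHB2 and EPHA4 that marks arteries, was the ligand that fell. Its signals were 5.66, 6.01 and 5.23 in WM115 and 3.23, 3.05 and 3.32 in WM266-4. All 3 WM115 arrays were at least 1.91 log2 above all 3 WM266-4 arrays. The means were 5.63 ± 0.39 and 3.20 ± 0.14 (SD, n = 3). The fitted difference was -2.43 (SE 0.21, interval -2.94 to -1.92, adjusted p = 0.0012 by limma). Its mean in WM266-4 lay under the filter of 3.97 log2, so the gene passed through its level in WM115 and no fold is given. The call held under the same alternatives as that of EPHA2.

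EFNB1, another membrane-spanning ligand, best known from craniofacial development, had signals of 5.40, 5.04 and 5.53 in WM115 and 5.18, 5.26 and 5.34 in WM266-4. The lines overlapped fully, since the WM266-4 arrays lay within the range of WM115. The difference was -0.06 (interval -0.43 to 0.30, adjusted p = 0.80 by limma). It turned to 0.014 on the later repeats alone.

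EFNA5, a GPI-anchored ligand with a guidance role in the visual system, had signals of 7.82, 8.17 and 7.82 in WM115 and 8.37, 8.29 and 8.11 in WM266-4. The lines overlapped, WM115 repeat 2 lying above WM266-4 repeat 3. The difference was 0.32 (SE 0.15, interval -0.03 to 0.67, adjusted p = 0.15 by limma). EFNA1, the GPI-anchored ligand of EPHA2, had signals of 3.62, 3.60 and 3.74 in WM115 and 3.61, 3.56 and 3.55 in WM266-4. These were near the bottom of the scale in both lines and were not tested; no detection calls were used here, so they are not read as absence. Without the filter on dim genes EFNA1 had a difference of -0.08 (adjusted p = 0.61 by limma).

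The size of the line difference was not the same in repeat 1 and in the later repeats for 3 of the receptors. A limma test of line by array version called 3 of the 9 tested genes, against 5.48% of all genes tested. EPHB2 differed by -0.28 in repeat 1 and by -3.31 and -2.82 in repeats 2 and 3 (adjusted p = 0.0012 for the difference between versions). EPHA3 differed by 0.72 in repeat 1 and by 2.85 and 2.76 later (adjusted p = 0.0024). EPHA2 differed by -2.46 in repeat 1 and by -3.84 and -3.64 later (adjusted p = 0.014). In all 3 the sign was the same and the later repeats gave the larger difference. EPHA4 had -0.66, -1.97 and -1.79 and did not pass (adjusted p = 0.058). EFNB2 had -2.42, -2.96 and -1.91, with a mean of -2.43 in the later repeats (adjusted p = 0.99). Repeat 1 held 1 array of each line, so its own spread is not measured, and kit, array version and repeat cannot be told apart. Some markers of cell state shifted between the same repeats. The line-by-version test called 4 of 8 melanocytic and 6 of 8 Schwann cell markers, S100B being on both lists. Of the other markers tested it called 1 of 3 endothelial, 2 of 7 fibroblast, 1 of 2 keratinocyte and 1 of 1 leukocyte markers. The melanocytic DCT differed by 8.70 in repeat 1 and by a mean of 5.29 later, and MLANA by 6.08 and 3.24. The neural crest receptor NGFR differed by -2.17 and 2.64, and the myelin gene MBP by 5.04 and 0.999. The endothelial receptor FLT1 differed by -2.83 and 1.79, and the collagen gene COL1A2 by 1.85 and 5.79. KDR, also endothelial, differed by -1.23 and -2.25, and the collagen gene COL3A1 by -2.87 and -1.58. Neither passed (adjusted p = 0.17 and 0.079 by limma). The part of these markers in the shift of the receptors was not tested.

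On the later repeats alone, where 31.5% of all genes were called, the same 5 genes were called. Their differences were -3.74 for EPHA2 (SE 0.13), 2.81 for EPHA3 (SE 0.14), -1.88 for EPHA4 (SE 0.17), -3.07 for EPHB2 (SE 0.15) and -2.43 for EFNB2 (SE 0.24).

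**Figure D2:**
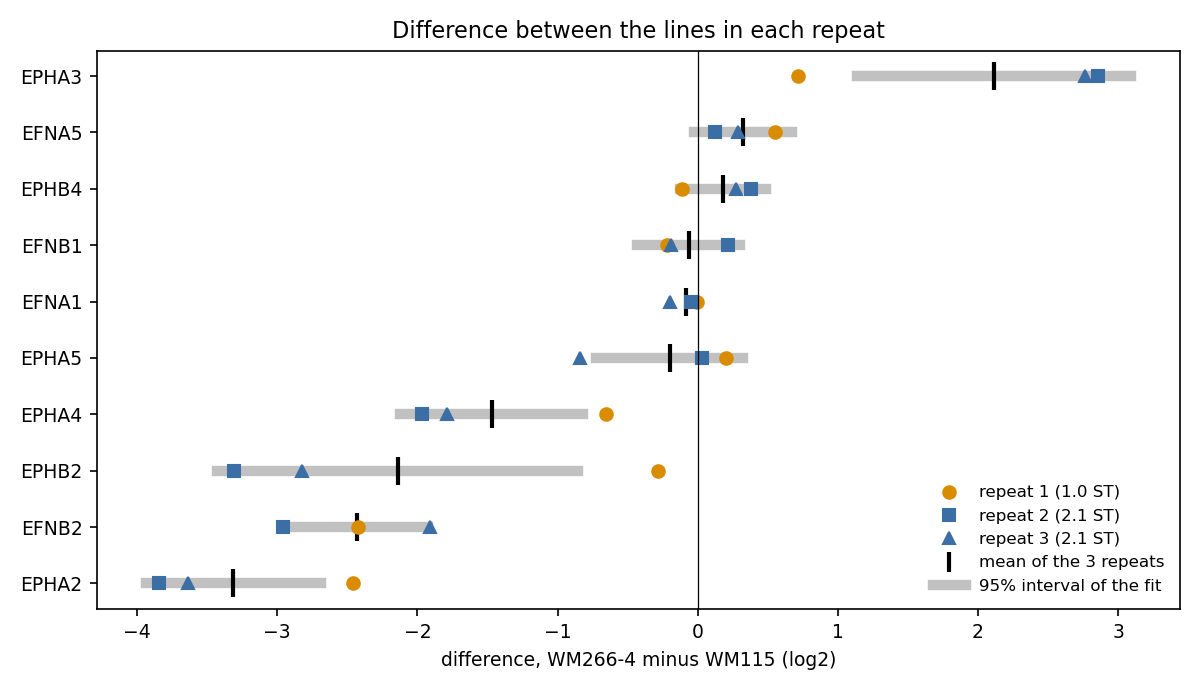
Difference between the lines (horizontal axis, WM266-4 minus WM115, log2) of each gene in repeat 1 (orange) and repeats 2 and 3 (blue), with the mean of the 3 repeats (black bar) and the 95% interval of the limma fit (grey; none for EFNA1, which was not tested). For EPHB2, EPHA3, EPHA4 and EPHA2 the orange point lies nearer to 0 than both blue points, while for EFNB2 it lies between them.

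Of the other 12 Eph and ephrin genes, 6 were too dim to be tested, 5 were not called and 1 fell. All 6 tested differences were negative, with a median of -0.29. EPHB1 and EFNA3 had means of 3.93 in WM266-4, under the filter level, so they passed through their level in WM115. The gene that fell was EFNA4, a GPI-anchored ligand, with signals of 5.94, 5.69 and 5.69 in WM115 and 4.83, 5.07 and 5.06 in WM266-4. Its arrays did not overlap, and the difference was -0.79 (SE 0.13, adjusted p = 0.0077 by limma). The 5 that were not called were the receptors EPHB1 (-0.30) and EPHB3 (-0.12) and the ligands EFNA2 (-0.10), EFNA3 (-0.28) and EFNB3 (-0.36). EPHB1 was called on the later repeats alone (-0.51, adjusted p = 0.019) and EFNB3 without WM115 replicate 3. The untested receptors EPHA1, EPHA6, EPHA7, EPHA8, EPHA10 and EPHB6 had line means from 2.68 to 3.89 log2. Among them EPHA1 (0.01) and EPHB6 (0.31) had positive differences. Those of EPHA6 (-0.29), EPHA7 (-0.15), EPHA8 (-0.16) and EPHA10 (-0.02) were negative. Over the whole family of 22 genes, 15 were tested and 6 called, or 40.0%, against 26.9% of all genes tested. Of the 6, 5 were lower, where 13.3% of all genes tested were lower, and the family had a median difference of -0.28. The other 12 genes alone had 1 call among 6 tested, or 16.7%. The rest of the family's calls were of the genes described above, chosen with earlier results known, so the family share is a description and not a test. Of the 8 tested receptors 4 were called, and of the 7 tested ligands 2, both lower.

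**Figure D3:**
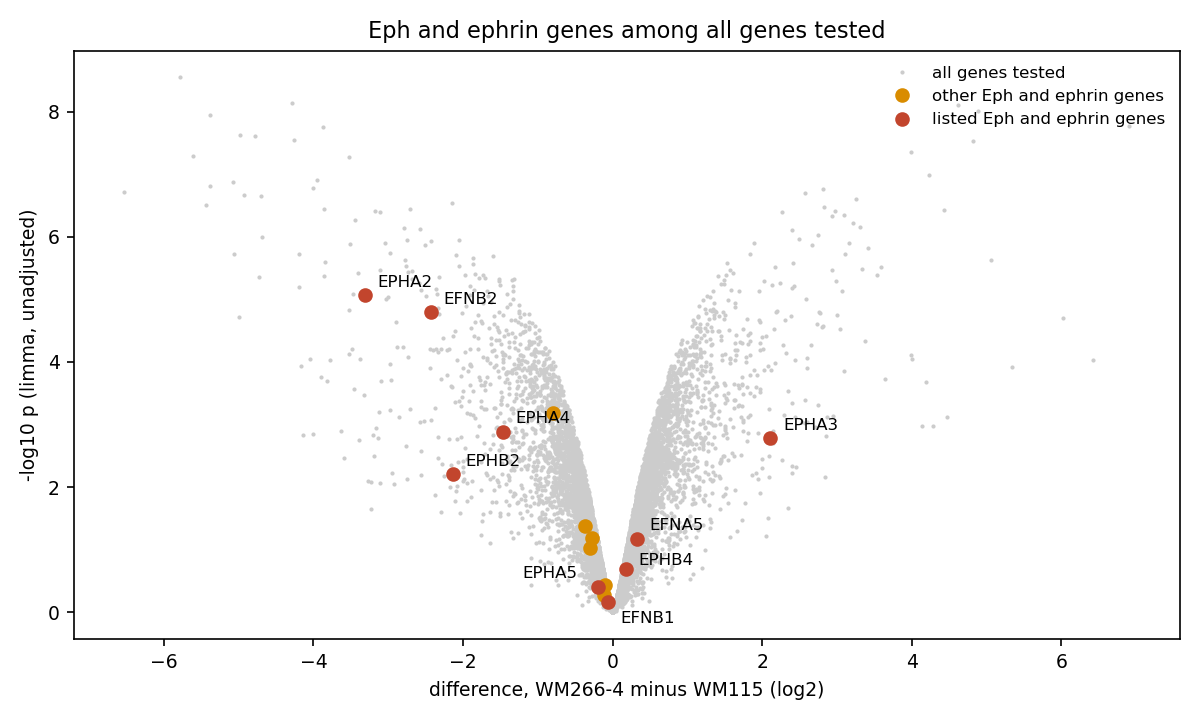
Difference between the lines (horizontal axis, log2) against the unadjusted limma p on a -log10 scale (vertical axis) for 12436 genes tested (grey), the 9 tested genes of the 10 (red) and the other tested Eph and ephrin genes (orange). EPHA2 and EFNB2 lie at the upper left among the genes of small p, while EPHB2 has a difference close to that of EFNB2 and a larger p.

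Genes that act with Eph receptors inside the cell were called about as often as all genes. Of 65 listed partners 57 were tested, and 15 were called (26.3%, against 26.9% of all genes), 3 higher and 12 lower, with a median difference of -0.14. Among adaptors and effectors 1 rose and 4 fell of 13 tested. ANKS1A, an adaptor that binds Eph receptors directly, had signals of 7.33, 6.94 and 6.99 in WM115 and 8.77, 9.14 and 9.28 in WM266-4, and it rose by 1.98 (SE 0.18, adjusted p = 0.0014 by limma). The Ras GTPase activating protein RASA1 (-0.95, SE 0.13) and the adaptor SHC1 (-0.85, SE 0.11) fell most in this class.

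Among exchange factors, GTPase activating proteins and GTPases 2 rose and 5 fell of 20 tested. The exchange factor KALRN had signals of 5.10, 5.12 and 5.24 in WM115 and 3.83, 3.78 and 3.63 in WM266-4, and its fitted difference was -1.41 (SE 0.11, adjusted p = 0.00082 by limma). Its mean in WM266-4, 3.74, lay under the filter level, so KALRN passed through its level in WM115. PAK1, a kinase switched on by RAC1 and CDC42, fell by 0.98 (SE 0.12), and ELMO2 (0.42, SE 0.12) and DOCK4 (0.37, SE 0.10), which activate Rac, rose. NGEF, also called ephexin-1, an exchange factor that acts below EphA receptors, is named with its values already known; its difference was -0.80 (SE 0.15, adjusted p = 0.012). The GTPase genes themselves were not called: CDC42 differed by 0.07, RAC1 by 0.02 and RHOA by 0.08, and these are transcript levels, not GTPase activity. Of 7 tested cytoplasmic kinases only YES1 was called (-0.74, SE 0.20), of 9 proteases and phosphatases only PTPN13, a phosphatase that in mouse acts on B-class ephrins (-1.31, SE 0.23), and of 8 scaffolds and cadherins only GRIP1, a scaffold of ephrin-B proteins (-0.84, SE 0.20). GRIP1 had a mean of 3.63 in WM266-4, under the filter level, so it too passed through its level in WM115. ADAM10, the protease that cuts A-class ephrins, had a difference of 0.43 (adjusted p = 0.099). The count of 15 went to 9 when WM115 replicate 3 was omitted, to 8 for WM266-4 replicate 2 and to 7 for WM266-4 replicate 3, while the share of all genes called went to 14.5%, 11.3% and 13.6% in those fits.

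**Figure D4:**
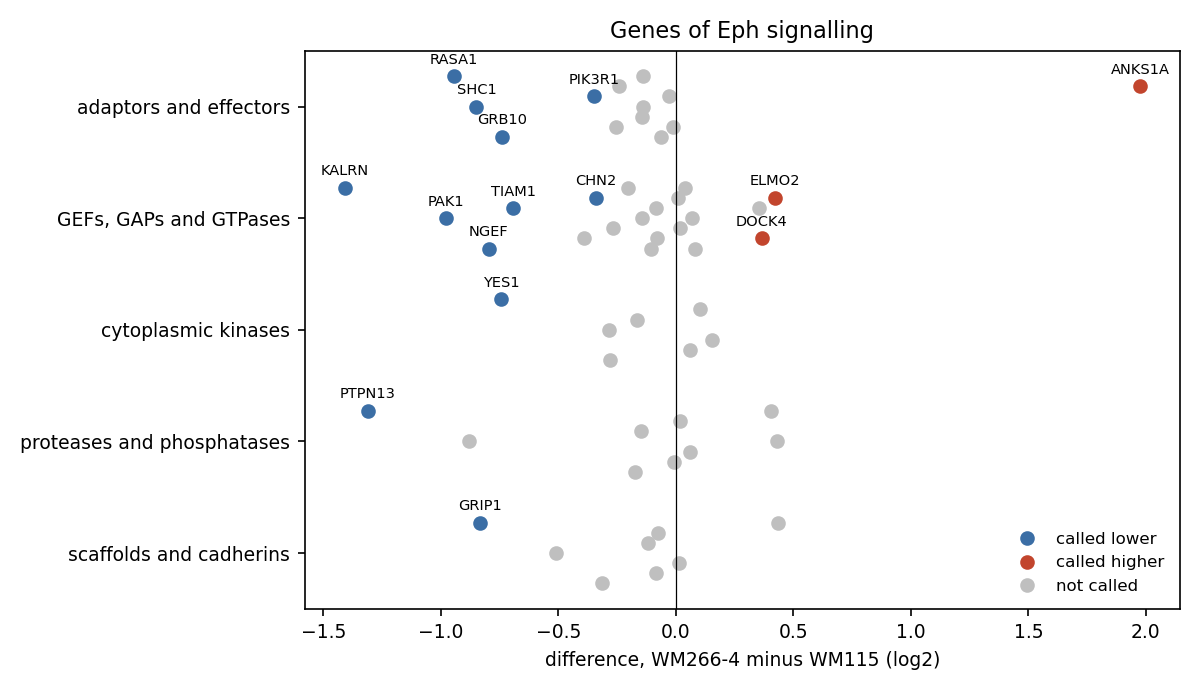
Difference between the lines (horizontal axis, WM266-4 minus WM115, log2) of the 57 tested signalling partners in 5 classes, with called genes named (blue lower, red higher in WM266-4) and genes not called in grey; the vertical scatter within a class carries no value. ANKS1A stands alone on the right at 1.98, and KALRN and PTPN13 lie farthest to the left.

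Most neighbours on the chromosome differed far less between the lines than the called genes did. The 10 tested genes on each side of EPHA2 on chromosome 1 had a median difference of 0.03 log2 and ranged from -0.39 to 1.32, so none came near -3.31. The medians around EPHA3, EPHA4 and EPHB2 were 0.01, 0.05 and 0.04, but differences of opposite sign offset each other in a median. Of the 20 neighbours of EPHA3, 4 were called higher and 5 lower, with a range from -2.16 to 1.33. The counts higher and lower were 3 and 1 for EPHA2, 1 and 1 for EPHA4, and 3 and 3 for EPHB2. Of all genes tested, 26.9% were called. Single neighbours were exceptions: a neighbour of EPHA4 differed by more than EPHA4 in the same direction, a neighbour of EPHB2 by nearly as much as EPHB2, and a neighbour of EPHA3 by about as much in the opposite direction. EFNB2, EFNA5 and EFNB1 lay in stretches where most genes had differences of the opposite sign, though EFNA5 and EFNB1 themselves were not called. On chromosome 13, where 127 of 212 tested genes were higher and 5 lower in WM266-4 with a median of 0.63, 19 of the 20 neighbours of EFNB2 had positive differences (median 0.55, 11 called higher and 0 lower), while EFNB2 was at -2.43. On chromosome 5, where 29 of 548 genes were higher and 168 lower, 18 of the 20 neighbours of EFNA5 were negative (median -0.45, 10 called lower), while EFNA5 was at 0.32. On the X chromosome 16 of the 20 neighbours of EFNB1 were positive (median 0.23, 4 called higher and 0 lower), while EFNB1 was at -0.06. EFNA1 lies beside EFNA3 and EFNA4 on chromosome 1, and its 20 neighbours had a median of -0.11.

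**Figure D5:**
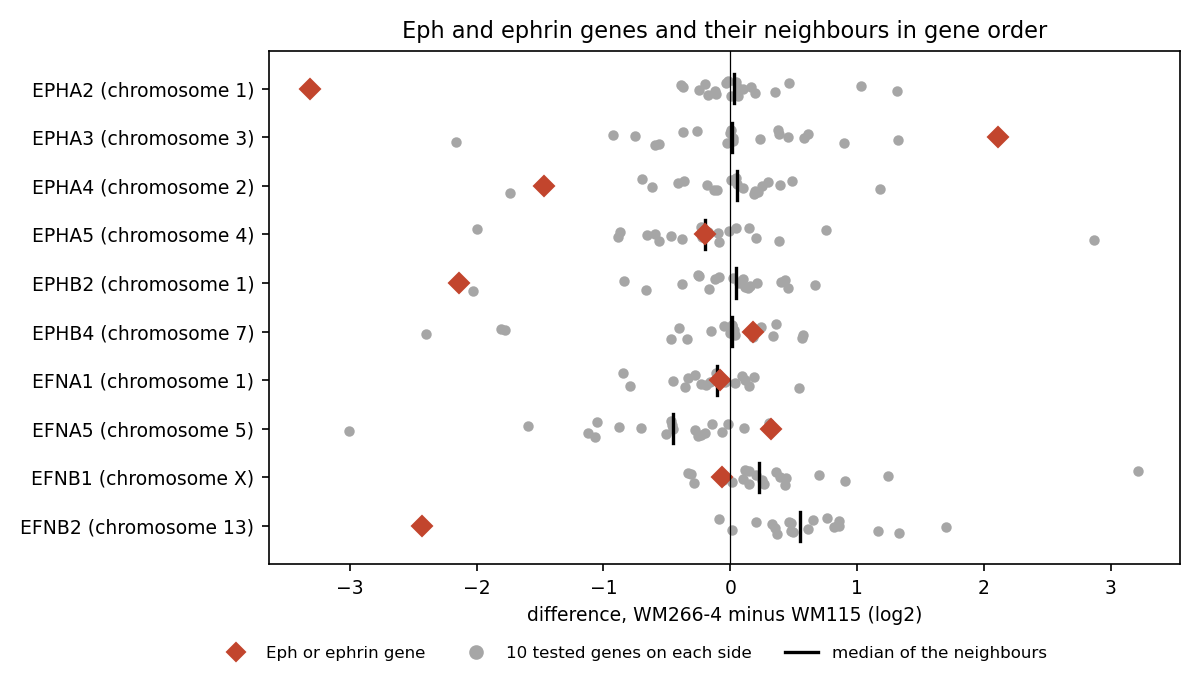
Difference between the lines (horizontal axis, WM266-4 minus WM115, log2) of each Eph or ephrin gene (red diamond) and of the 10 tested genes on each side of it in RefSeq gene order (grey dots), with the median of those 20 neighbours (black bar); vertical scatter carries no value. The EFNB2 diamond lies at -2.43, left of all of its neighbours, which run from -0.09 to 1.70.

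The genes with array profiles most like EPHA2 and EPHA3 were found by the Euclidean distance between the 6 values, each gene centred on its own mean. Nearest to EPHA2 were KCNN3 (distance 0.14 log2, difference -3.40), TNFRSF10D (0.34, -3.53) and SALL1 (0.51, -3.48). Nearest to EPHA3 were ANO4 (0.20, difference 2.15), FAM46C (0.28, 1.94) and SEMA3B (0.38, 1.86). Each of these 6 genes also had its smallest difference in repeat 1. With 6 arrays of 2 lines, this likeness rests mostly on the size of the line difference in each repeat.

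The lines were checked against markers. Of 8 melanocytic markers 6 rose in WM266-4 and 0 fell. SOX10, a melanocyte lineage factor, was at 7.90 in WM115 and 8.09 in WM266-4, while TYR was at 3.17 in WM115, under the filter level, and at 10.08 in WM266-4. TYRP1, DCT, PMEL and MLANA were also under the filter level in WM115 (means from 2.79 to 3.62), so they passed through WM266-4. The mean log2 level over the 8 markers ran from 4.44 to 5.004 in WM115 and from 7.96 to 8.58 in WM266-4. EPHA2 and EPHB2 are also epithelial genes. Of 8 keratinocyte markers DSP fell (-1.48), and CDH3 was tested and not called (-0.76, adjusted p = 0.16 by limma). The other 6, the keratins KRT5, KRT14, KRT1 and KRT10 among them, were under the filter. The list means ran from 3.56 to 3.93 in WM115 and from 3.23 to 3.53 in WM266-4. EFNB2 is also an endothelial gene: of 7 endothelial markers KDR fell (-1.91) and CDH5, VWF, TEK and TIE1 were under the filter, with list means from 4.38 to 4.65 and from 4.20 to 4.46. FLT1, at 6.89 in WM115 and 7.15 in WM266-4 (difference 0.25), and CLDN5 (difference -0.02) were not called. Of 8 leukocyte markers CD68 fell (-1.76) and the other 7 were under the filter, with list means from 3.73 to 4.00 and from 3.63 to 3.87. Of 9 fibroblast markers COL1A2 rose (4.48) and COL3A1 (-2.01) and PDGFRB (-1.02) fell, with list means from 4.69 to 4.92 and from 4.78 to 4.93. DSP (3.80), CDH3 (3.60), COL3A1 (3.81) and PDGFRB (3.93) had means under the filter level in WM266-4, so they passed through WM115. Of 8 Schwann cell markers ERBB3 was called higher (1.97, adjusted p = 0.048 by limma), with overlapping arrays and a difference of -0.0018 in repeat 1 against a mean of 2.96 later. The 8 had list means from 6.28 to 7.003 in WM115 and from 6.85 to 7.50 in WM266-4. The part of any of these markers in the Eph and ephrin differences was not tested.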

How the data were processed

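RNA of 3 biological repeats of WM115 and of WM266-4 was measured on 6 arrays. The tools named, per the submitters' processing notes, were RMA and Affymetrix Expression Console, with no versions given. The deposited table gave log2 signals with gene names, joined over both array versions by the authors in a way not given in the sources used here. The value tables of each array version were not used here.

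Of 18887 rows, 1121 repeated a symbol, and the row with the highest mean was kept. Genes under the 30th percentile of the mean were left out, and 12436 entered a linear model (limma 3.58.1, R 4.3.3) with line and array version as terms (3 residual and 3.38 prior degrees of freedom; Benjamini-Hochberg adjustment). P-values from this fit rest on the spread between these repeats. That spread also holds any change of the line difference between array versions, since the fit has no term for it. A fit with an interaction term compared array versions. The fits were tested on simulated data. The number of arrays limits the precision.

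Members and lists were chosen with earlier results of these data known. The text names all 10 members, called genes of the rest of the family, up to 2 called partners per class and direction, called markers where 3 or fewer, and the 3 nearest profiles of EPHA2 and EPHA3; the other genes named (NGEF, CDC42, RAC1, RHOA, ADAM10 and further family genes and markers) were chosen after their values were seen. Gene order and sequences came from RefSeq (GRCh38.p14), to which 12396 of the genes tested matched. Motifs were sought in the 250 bases before the first listed start.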

Additional observations from a re-analysis of the deposited data

Results flagged for a closer look

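For 3 of the 9 tested genes the difference between the lines was not the same in the later repeats as in the first, by a limma test of line by array version. The later difference minus the first was -2.78 log2 for EPHB2 (SE 0.26, adjusted p = 0.0012), 2.09 for EPHA3 (SE 0.24, adjusted p = 0.0024) and -1.28 for EPHA2 (SE 0.22, adjusted p = 0.014). In each of the 3 genes the sign was the same in all 3 repeats and repeat 1 had the smallest difference. The RNA kit, the array version and the repeat changed together, so they cannot be told apart, and repeat 1 had 1 array of each line. With 3 arrays a line, no test for an outlying array was made.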

How the results depend on the processing

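EPHA2 (-3.74 to -3.15) and EFNB2 (-2.65 to -2.21) kept their direction and call in all 14 alternative fits, 3 of which coincide (the 2.1 arrays alone, and leaving out either repeat 1 array). The count of 5 called genes was 5 with no array version term, with no filter, after quantile normalization, with a trended prior, with rows of a symbol averaged and on the 2.1 arrays alone, and 4 with a robust prior. Leaving out 1 array gave 2 to 5: 2 without WM115 replicate 2 and 3 without WM115 replicate 3, WM266-4 replicate 2 or WM266-4 replicate 3, where the share of all genes called went from 26.9% to 14.3%, 14.5%, 11.3% and 13.6%. With the replicate block 4 were called, since EPHB2 was lost (adjusted p = 0.069), and the partners went from 15 to 9, while 19.3% of all genes were called. The correlation of deviations within numbered pairs was -0.998, -0.26 and -0.40. These values were set in part by the levelling between array versions, so they cannot show whether the numbers pair the arrays. The main fit did not pair them, while the differences given per repeat follow the numbers. The other family genes called went from 1 to 2 on the 2.1 arrays alone, and leaving out 1 array gave 1 to 2; partners gave 7 to 15. The count of 3 genes that differed between array versions was 3 in all 3 alternatives run. Signs turned in genes not called: EFNB1 to 0.014 on the 2.1 arrays alone, with a range from -0.226 to 0.054 on leaving out 1 array, and EPHA5 to 0.053 without WM115 replicate 3. On the 1.0 arrays alone, a pair with no test, EPHA5 was at 0.20 and EPHB4 at -0.11. Leaving out either repeat 1 array also meant fewer arrays, but 5 members stayed called and 31.5% of all genes were called. The cause of the changes between fits was not tested.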
